A study of Mus musculus with 4 samples.

Results

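Kupffer cells (KCs) are the resident macrophages of the liver sinusoids, where they take up particles, microbes and aged red blood cells from the blood. Their identity is maintained by transcription factors that respond to signals from neighboring endothelial, stellate and parenchymal cells, among them the liver X receptor alpha. When KCs are lost, monocytes from the blood can take their place and acquire KC genes step by step, with Timd4 among the late ones. The 10 genes described here are the KC identity genes Clec4f, Vsig4, Timd4, Marco, Cd5l, Cd163, Folr2, Nr1h3, Spic and Id3, chosen by name from 55488 genes counted. They encode surface receptors for particles and ligands, a secreted protein and regulators of transcription. A cell was called a KC when UMIs of C1qa and Adgre1 and of at least 1 of Cd5l and Clec4f were found, so 2 of the 10 members are used by the gate and 8 are not. The levels of Cd5l and Clec4f in KCs are therefore a description of the cells the gate collects.

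Single-cell RNA was counted as unique molecular identifiers (UMIs) near the 3' end of transcripts in livers of 4 mice, 1 for each genotype, without treatment; the age of these mice is not stated in the sources used here. WT mice carried no modification, whereas YAPKO, TAZKO and DKO mice carried floxed alleles of Yap, Taz or both with Cre recombinase driven by the albumin promoter. The study describes the deletion as specific to hepatocytes (HCs) and biliary epithelial cells (BECs). Whether the alleles of KCs stayed intact was not tested. HCs and non-parenchymal cells were isolated separately and mixed before loading. UMIs numbered 66259687 in WT, 85989454 in YAPKO, 49022089 in TAZKO and 77411746 in DKO, and 7155 in WT, 6275 in YAPKO, 8638 in TAZKO and 8294 in DKO cells passed the limits on genes (500 to 6000) and on mitochondrial RNA (10%). The study states the first limit in transcripts, which can be read as genes or as UMIs; read as UMIs, it gives 145 in WT, 43 in YAPKO, 635 in TAZKO and 90 in DKO as the numbers of KCs.

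The targeted genes were read in HCs as a check of the labels, with counts scaled to 1000000 UMIs (CPM) and exact Poisson 95% intervals. Yap1 in HCs was at 21.2 (19.2 to 23.4) in WT, 4.69 (3.70 to 5.86) in YAPKO, 47.4 (43.8 to 51.2) in TAZKO and 4.70 (3.97 to 5.53) in DKO, and Wwtr1, which encodes TAZ, was at 5.11 (4.13 to 6.25) in WT, 13.4 (11.7 to 15.3) in YAPKO, 2.56 (1.78 to 3.55) in TAZKO and 2.53 (1.999 to 3.16) in DKO. Yap1 was low in YAPKO and DKO, and Wwtr1 was low in TAZKO and DKO, as labelled. UMIs at the 3' end can also come from transcripts of a recombined allele, so the remaining counts do not measure how many HCs kept an intact allele. The intervals here and below cover counting error only. Each genotype was measured in 1 mouse, so no difference between genotypes has a replicate check, and no p-value is given for any of them. All 3 ratios to WT share the same WT library.

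KCs numbered 810 in WT, 836 in YAPKO, 1270 in TAZKO and 986 in DKO, or 3902 among 30362 cells, with a median depth (UMIs) of 13024 in WT, 18004 in YAPKO, 6087 in TAZKO and 11454 in DKO. TAZKO KCs were the shallowest and YAPKO KCs the deepest. The percentage of KCs with both Cd5l and Clec4f was 96.4% in WT, 87.7% in YAPKO, 97.6% in TAZKO and 90.3% in DKO. Of the 8 genes that define phagocytes, C1qa and Adgre1 are required by the gate, and the other 6 (C1qb, C1qc, Csf1r, Cd68, Fcgr1 and Ctss) had a summed CPM of 14676 in WT, 17227 in YAPKO, 10229 in TAZKO and 14132 in DKO in KCs, with none at 0. The receptors Vsig4, Timd4, Marco, Cd163 and Folr2, which the gate does not use, were detected in KCs of every library. Phagocyte genes and KC receptors that the gate does not use were thus present in the KCs of all 4 libraries. No barcode sequence of a KC was shared between libraries, although 94 barcodes of kept cells were.

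RNA of other liver cells was present in the cells the gate collected. The 8 HC markers had a summed CPM of 3780.0 in WT, 2307 in YAPKO, 4582 in TAZKO and 3526 in DKO in KCs, led by Alb. The 7 markers of endothelial cells (ECs) had a summed CPM of 1559 in WT, 1196 in YAPKO, 1738 in TAZKO and 1802 in DKO, led by Clec4g in WT and by Ptprb in the other libraries. The 7 markers of hepatic stellate cells (HSCs) had a summed CPM of 598 in WT, 177 in YAPKO, 869 in TAZKO and 416 in DKO, led by Ecm1 in YAPKO and by Dcn elsewhere. HC and HSC markers were highest in TAZKO and lowest in YAPKO. The 7 monocyte markers had a summed CPM of 726 in WT, 729 in YAPKO, 516 in TAZKO and 201 in DKO, led by Plac8 in every library. Without Plac8 the other 6 summed to 49.3 in WT, 118 in YAPKO, 33.0 in TAZKO and 65.8 in DKO, so that the low sum of DKO rested on Plac8 and the rest was highest in YAPKO. The 6 neutrophil markers, led by S100a9 or S100a8, had a summed CPM of 332 in WT, 202 in YAPKO, 124 in TAZKO and 248 in DKO. For the 5 BEC markers it was 4.83 in WT, 1.996 in YAPKO, 12.4 in TAZKO and 2.63 in DKO, with Krt19 at 0 in DKO. For the 5 markers of plasmacytoid dendritic cells it was 1069 in WT, 1118 in YAPKO, 378 in TAZKO and 658 in DKO, led by Bst2. Without Bst2 the others summed to 35.7 in WT, 27.3 in YAPKO, 15.6 in TAZKO and 43.5 in DKO. The sum and its order among libraries thus rested on Bst2. Of all KCs, 342 (8.76%) had another class as their leading marker class, most often HSCs (111 cells) or ECs (63 cells). The part of RNA from other cells in the values of the members was not tested.

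By the median over the libraries, 9 of the 10 members were highest in KCs and Id3 was not. For these 9 the next class was the phagocytes in which C1qa or Adgre1 was not detected, called other phagocytes here. Clec4f in other phagocytes ranged from 692 to 2516 CPM over the 4 libraries, and Vsig4 from 374 to 1636 CPM. In TAZKO alone, Nr1h3 was higher in other phagocytes than in KCs. Spic in other phagocytes of TAZKO, at 85.2 CPM (54.6 to 127) from 24 UMIs, cannot be told apart from KCs. Against the highest class outside the phagocytes, the median level in KCs was 188 times higher for Clec4f (HSCs), 127 times for Vsig4 (HSCs) and 198 times for Folr2 (HSCs). The ratio was 114 for Cd5l (HSCs), 122 for Cd163 (plasmacytoid dendritic cells), 94.7 for Marco (HSCs) and 44.9 for Timd4 (conventional dendritic cells). The 3 regulators of transcription were spread more widely. For Spic the ratio was 7.94 against monocytes, for Nr1h3 it was 5.65 against HCs, and for Id3 it was 0.563 against ECs. In ECs, Id3 was at 1014 CPM in WT, 1265 in YAPKO, 1066 in TAZKO and 1401 in DKO. In HSCs it was at 866 CPM in WT, 1073 in YAPKO, 874 in TAZKO and 1165 in DKO, and in KCs at 615 CPM in WT, 594 in YAPKO, 729 in TAZKO and 698 in DKO. In every library Id3 was thus higher in ECs and HSCs than in KCs, and ECs were above HSCs.

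**Figure D1:**
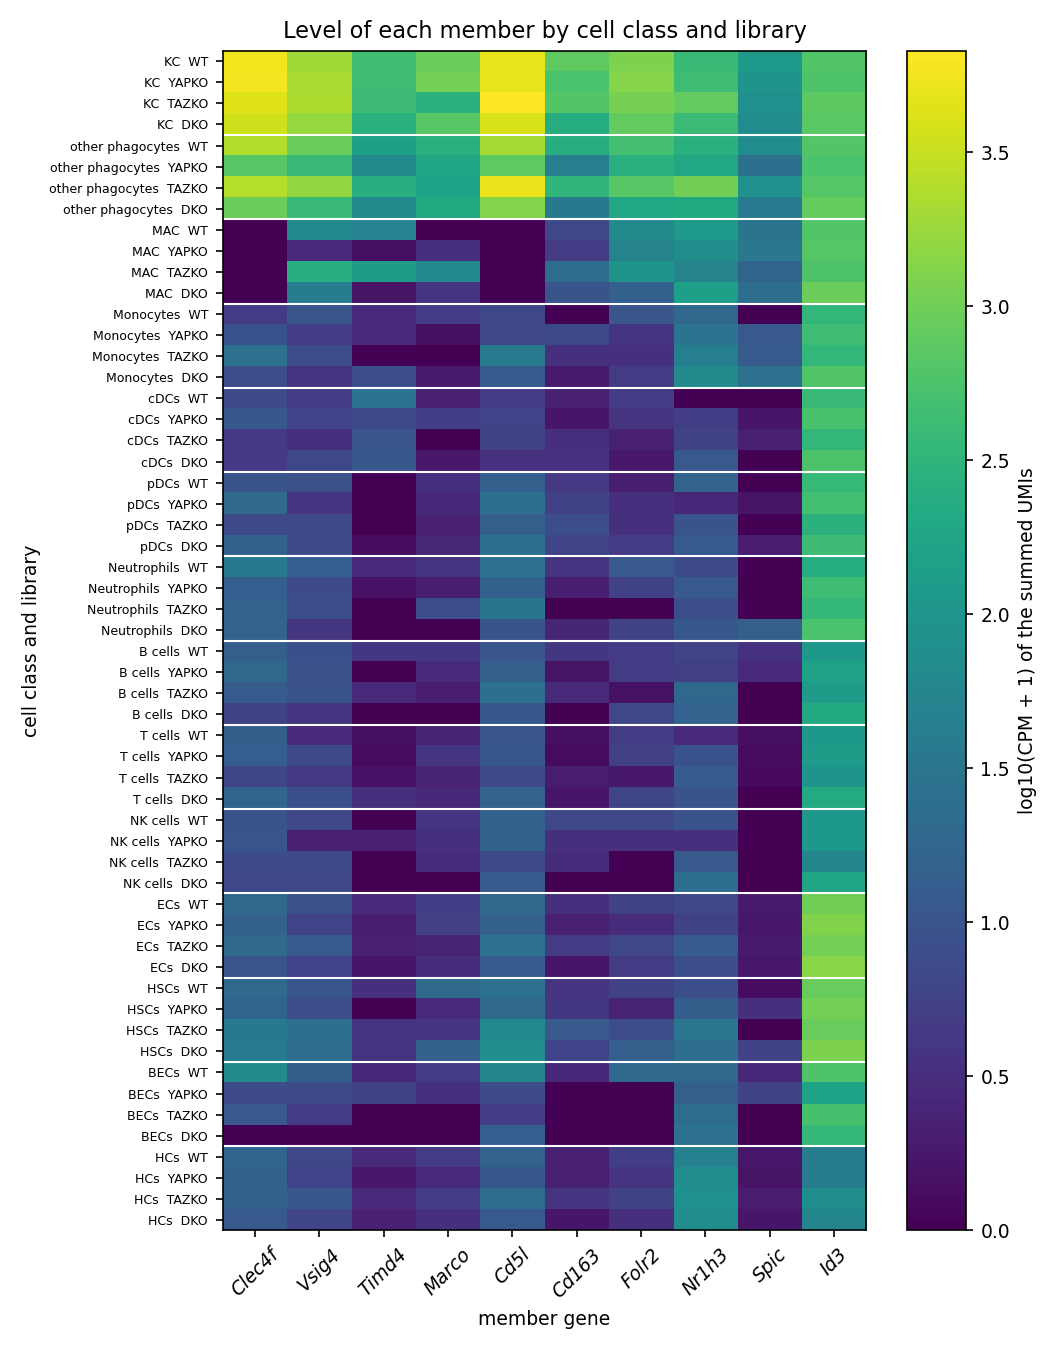
Level of each member, as log10 of CPM + 1 of the summed UMIs, by cell class and library (rows) and gene (columns). Clec4f reached 5856 CPM in KCs of YAPKO, whereas Id3 reached 1401 CPM in ECs.

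The share of all UMIs of a member that lay in KCs was next read for each member, and for Clec4f and Cd5l the gate itself fixes much of it, since cells with C1qa, Adgre1 and either of these genes are KCs by rule. For Clec4f, the share of UMIs of kept cells that lay in KCs was 97.6% in WT, 98.8% in YAPKO, 96.9% in TAZKO and 96.7% in DKO. For Timd4 the share was 96.8% in WT, 98.3% in YAPKO, 95.6% in TAZKO and 95.05% in DKO. The shares of Vsig4, Marco, Cd163 and Folr2 lay between 94.3% (Marco in TAZKO) and 98.7% (Cd163 in YAPKO). Nearly all UMIs of these receptors outside the gate were thus in KCs in each genotype. For Spic the share was 94.7% in WT, 89.4% in YAPKO, 92.4% in TAZKO and 84.2% in DKO. For Nr1h3 it was 78.3% in WT, 77.9% in YAPKO, 80.3% in TAZKO and 61.8% in DKO, and for Id3 28.2% in WT, 26.5% in YAPKO, 32.3% in TAZKO and 26.4% in DKO. The share of Nr1h3 was lowest in DKO, and the share of Id3 was under that of every other member in all 4 libraries. The shares also depend on how much RNA of other classes a library holds: HCs had 30846524 UMIs in DKO, 18593575 in WT, 16430742 in YAPKO and 13693878 in TAZKO. In HCs, Nr1h3 was at 46.7 CPM in WT, 75.9 in YAPKO, 82.0 in TAZKO and 73.7 in DKO, and in other phagocytes at 266 CPM in WT, 196 in YAPKO, 1039.6 in TAZKO and 213 in DKO. In other phagocytes, as in KCs, Nr1h3 was highest in TAZKO. Timd4 in conventional dendritic cells was at 28.1 CPM in WT, 6.28 in YAPKO, 9.07 in TAZKO and 10.0 in DKO, highest in WT.

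Among the receptors, Clec4f, Timd4 and Cd163 were lower in DKO, and Marco was lower in TAZKO. The promoters of these 4 genes are shown because they are the receptors with a ratio to WT past 1.5-fold. Each window runs from 250 bases before to 50 bases after the RefSeq transcription start on GRCm38.p6 and is written 5' to 3' on the strand of the gene. Clec4f lies on the minus strand of chromosome 6 (window chr6:83656067-83656366), Timd4 on the plus strand of chromosome 11 (chr11:46810549-46810848), Marco on the minus strand of chromosome 1 (chr1:120504975-120505274) and Cd163 on the plus strand of chromosome 6 (chr6:124304401-124304700). Capitals mark short motifs searched on both strands: GAGGAA or TTCCTC for PU.1, AGGTCA or TGACCT for a nuclear receptor half-site, TGCTGA or TCAGCA for a MAF half-site, TGGGAA or TTCCCA for RBPJ, and GGAATG or CATTCC for TEAD.
Clec4f: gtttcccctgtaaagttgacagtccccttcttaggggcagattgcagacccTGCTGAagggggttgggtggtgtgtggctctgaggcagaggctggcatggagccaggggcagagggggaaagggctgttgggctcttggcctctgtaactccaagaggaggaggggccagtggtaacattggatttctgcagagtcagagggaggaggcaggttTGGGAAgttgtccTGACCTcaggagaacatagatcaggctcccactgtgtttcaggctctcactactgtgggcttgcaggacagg
Timd4: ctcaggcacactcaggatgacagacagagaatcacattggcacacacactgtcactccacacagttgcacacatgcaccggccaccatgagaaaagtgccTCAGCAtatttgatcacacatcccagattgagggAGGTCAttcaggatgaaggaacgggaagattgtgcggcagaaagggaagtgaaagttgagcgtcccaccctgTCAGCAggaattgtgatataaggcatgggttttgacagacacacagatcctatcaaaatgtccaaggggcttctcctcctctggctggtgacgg
Marco: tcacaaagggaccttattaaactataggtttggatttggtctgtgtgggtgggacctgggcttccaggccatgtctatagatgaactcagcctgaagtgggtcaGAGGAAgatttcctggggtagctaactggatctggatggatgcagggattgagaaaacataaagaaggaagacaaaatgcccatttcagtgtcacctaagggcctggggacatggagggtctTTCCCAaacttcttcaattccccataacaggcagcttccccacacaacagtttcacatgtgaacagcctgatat
Cd163: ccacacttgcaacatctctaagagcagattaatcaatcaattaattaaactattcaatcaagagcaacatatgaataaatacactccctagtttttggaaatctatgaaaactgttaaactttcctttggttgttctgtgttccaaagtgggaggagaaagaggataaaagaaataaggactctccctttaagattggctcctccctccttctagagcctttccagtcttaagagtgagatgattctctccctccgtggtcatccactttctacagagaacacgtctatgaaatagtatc
Of 32851 promoters of this length, PU.1 letters were in 28.3%, the nuclear receptor half-site in 16.3%, the MAF half-site in 19.5%, RBPJ letters in 25.6% and TEAD letters in 14.7%. The nuclear receptor half-site was found in Clec4f and Timd4 and in no other member, the MAF half-site in 6 of the 10 members, and the Cd163 window held none of the 5 motifs. Such short words match often, and a match is a description of the letters only.

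Clec4f, a C-type lectin receptor that in the mouse is found nearly only on KCs, is used by the gate. In KCs it was at 5629.7 CPM (95% interval 5585 to 5675) in WT, 5856 CPM (95% interval 5817 to 5895) in YAPKO, 4408 CPM (95% interval 4364 to 4453) in TAZKO and 3585 CPM (95% interval 3551 to 3618) in DKO. YAPKO lay close to WT, and DKO was the lowest library. The log2 ratio to WT was 0.06 in YAPKO, -0.35 in TAZKO and -0.65 (-0.67 to -0.63) in DKO. Ratios were computed again under 10 alternative settings of the limits, the gate, depth and scaling, of which 1 (no upper limit on genes) was chosen after seeing the data. The ratio in DKO was past 1.5-fold, but it stayed past 1.5-fold in 6 of 10 alternative settings only, with -0.47 when each cell was thinned to 2000 UMIs. Vsig4, the complement receptor of the immunoglobulin superfamily that binds C3 fragments on particles, showed no ratio past 1.5-fold. It was at 1901 CPM (1875 to 1928) in WT, 2189.9 CPM (2166 to 2214) in YAPKO, 2290.1 CPM (2258 to 2322) in TAZKO and 1656 CPM (1634 to 1679) in DKO. TAZKO and YAPKO were above WT and DKO was below it, with log2 ratios of 0.20 in YAPKO, 0.27 in TAZKO and -0.20 in DKO. Vsig4 in YAPKO changed sign in 2 of 10 alternatives, and was at -0.16 without the upper limit on genes.

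Timd4, a receptor for phosphatidylserine on dying cells that marks long-lived KCs, was lower in DKO than in the other libraries. It was at 454 CPM (441 to 466) in WT, 436 CPM (426 to 447) in YAPKO, 421 CPM (407 to 434) in TAZKO and 274 CPM (265 to 284) in DKO. The log2 ratio was -0.72 (-0.79 to -0.66) in DKO, -0.11 in TAZKO and -0.06 in YAPKO, where it turned to 0.04 with TMM scaling. YAPKO and TAZKO did not differ beyond counting error (0.05, -0.01 to 0.11 on the log2 scale), the only such pair of neighboring libraries among the 10 members. In DKO, 3.82% of the 10616 genes tested had a lower ratio than Timd4. The ratio stayed past 1.5-fold in 8 of 10 alternatives, and thinning to 2000 UMIs gave -0.35. Marco, a class A scavenger receptor for bacteria and unopsonized particles, was the receptor with the lowest level in TAZKO relative to WT. It was at 901 CPM (884 to 919) in WT, 1075 CPM (1058 to 1091) in YAPKO, 282 CPM (271 to 293) in TAZKO and 675 CPM (660.3 to 689.6) in DKO. WT held 3.20 times the level of TAZKO, a log2 ratio of -1.68 (-1.74 to -1.61), whereas the ratio was 0.25 in YAPKO and -0.42 in DKO. Of the 10305 genes tested in TAZKO, 0.815% had a lower ratio. All 10 alternatives kept Marco past 1.5-fold lower in TAZKO, from -1.89 to -1.53. In YAPKO, Marco ranged from -0.07 without the upper limit on genes to 0.68 with limits of 500 to 6000 UMIs. With the latter limits, Marco in DKO turned to 0.05.

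Cd163, the receptor that clears haemoglobin bound to haptoglobin, was lowest in DKO. It was at 757 CPM (741 to 774) in WT, 553 CPM (541 to 565) in YAPKO, 639 CPM (622 to 656) in TAZKO and 236 CPM (228 to 245) in DKO. WT was the highest library, TAZKO and YAPKO lay below it, and DKO was far under all of them. WT held 3.20 times the level of DKO, a log2 ratio of -1.68 (-1.74 to -1.62), with -0.45 in YAPKO and -0.24 in TAZKO. In DKO, 0.951% of the genes tested had a lower ratio than Cd163. It was past 1.5-fold lower in all 10 alternatives, from -1.77 to -0.68, the latter when cells were limited to 500 to 6000 UMIs. Folr2, the folate receptor beta of tissue macrophages, followed with a smaller difference. It was at 1172 CPM (1151 to 1192) in WT, 1339.7 CPM (1321 to 1358) in YAPKO, 1115 CPM (1093 to 1137) in TAZKO and 798 CPM (782 to 814) in DKO. DKO was again the lowest library, at a log2 ratio of -0.55 (-0.59 to -0.52), which is short of 1.5-fold, and YAPKO (0.19) and TAZKO (-0.07) lay closer to WT. In 2 of 10 alternatives the ratio of Folr2 in DKO passed 1.5-fold, at -0.66 without the upper limit on genes and at -0.61 with TMM scaling. Folr2 in YAPKO turned to -0.15 without the upper limit on genes, and in TAZKO to 0.05 with limits of 500 to 6000 UMIs. Cd5l, a secreted scavenger receptor protein that protects macrophages from apoptosis, is used by the gate. It was at 5014 CPM (4972 to 5056) in WT, 4841 CPM (4806 to 4876) in YAPKO, 6749.5 CPM (6695 to 6805) in TAZKO and 3929 CPM (3894 to 3965) in DKO. TAZKO was highest and DKO lowest, with log2 ratios of 0.43 and -0.35, and YAPKO was at -0.05, or 0.04 with TMM scaling.

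**Figure D2:**
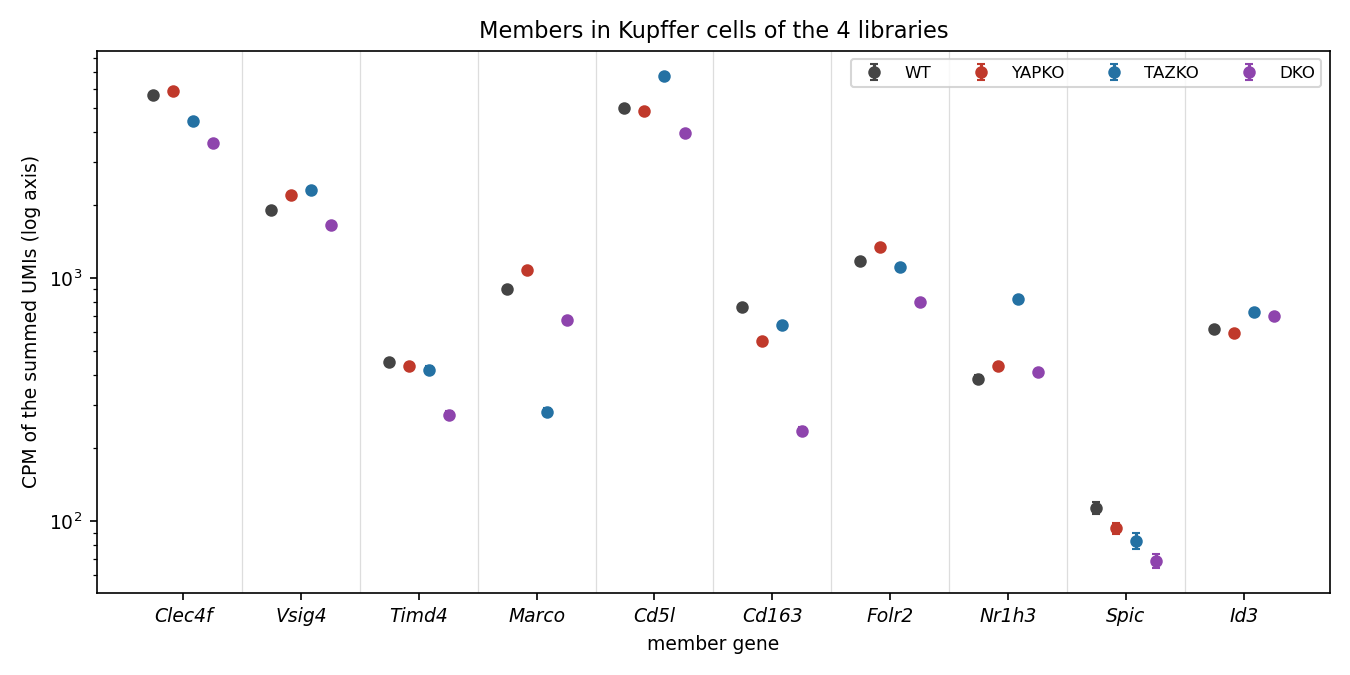
Level of each member in KCs of the 4 libraries (CPM of the summed UMIs, log axis), with exact Poisson 95% intervals as bars. Marco was lowest in TAZKO at 282 CPM and Cd163 in DKO at 236 CPM, while Nr1h3 was highest in TAZKO at 820.3 CPM.

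The 3 regulators of transcription each had a pattern of their own. Their promoters are shown because Nr1h3 was the member with the highest ratio to WT, Spic was lower in DKO, and Id3 was the member found widely outside KCs. Nr1h3 lies on the minus strand of chromosome 2 (chr2:91194986-91195285), Spic on the minus strand of chromosome 10 (chr10:88682974-88683273) and Id3 on the plus strand of chromosome 4 (chr4:136143572-136143871), with capitals as above.
Nr1h3: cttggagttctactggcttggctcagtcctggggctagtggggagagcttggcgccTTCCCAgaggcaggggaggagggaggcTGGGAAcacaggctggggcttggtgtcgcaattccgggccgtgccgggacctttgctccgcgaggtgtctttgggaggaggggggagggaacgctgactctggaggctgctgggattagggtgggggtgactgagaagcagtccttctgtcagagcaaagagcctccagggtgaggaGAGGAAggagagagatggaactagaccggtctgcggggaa
Spic: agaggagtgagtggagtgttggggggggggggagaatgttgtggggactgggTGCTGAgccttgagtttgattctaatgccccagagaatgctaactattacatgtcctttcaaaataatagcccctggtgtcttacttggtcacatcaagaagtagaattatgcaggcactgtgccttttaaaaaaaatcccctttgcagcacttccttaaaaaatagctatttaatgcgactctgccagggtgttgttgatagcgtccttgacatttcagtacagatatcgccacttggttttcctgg
Id3: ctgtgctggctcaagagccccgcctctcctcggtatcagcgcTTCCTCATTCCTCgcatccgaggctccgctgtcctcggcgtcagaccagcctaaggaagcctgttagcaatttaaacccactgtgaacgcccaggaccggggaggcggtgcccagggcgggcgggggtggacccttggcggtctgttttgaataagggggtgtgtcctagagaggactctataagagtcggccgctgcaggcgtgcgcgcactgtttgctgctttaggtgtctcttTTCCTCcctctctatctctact
PU.1 letters were present in Nr1h3 and Id3, and in Vsig4, Marco and Cd5l among the others. Nr1h3 has a second RefSeq start, and its window (chr2:91195067-91195366), which is not printed, held RBPJ letters and no PU.1 letters. The TEAD letters, the motif of the DNA-binding partners of YAP and TAZ, were present in Id3 and in no other member, on the strand opposite to the gene. In Id3 they overlap 2 PU.1 matches in the run TTCCTCATTCCTC, so these letters are counted under both motifs. Nr1h3 also held RBPJ letters on both strands, and Spic held a MAF half-site.

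Nr1h3 encodes the liver X receptor alpha (LXR alpha), a nuclear receptor for oxysterols that maintains KC identity. In KCs it was at 386 CPM (375 to 398) in WT, 435 CPM (424 to 446) in YAPKO, 820.3 CPM (801 to 839.6) in TAZKO and 411 CPM (399.6 to 422) in DKO. TAZKO stood above the other libraries, which lay close together. TAZKO held 2.12 times the level of WT, a log2 ratio of 1.09 (1.03 to 1.14), against 0.17 in YAPKO and 0.09 in DKO. A higher ratio was found in 3.82% of the genes tested in TAZKO, and all 10 alternatives kept the ratio past 1.5-fold, from 0.88 to 1.13. Nr1h3 in YAPKO changed sign in 4 of 10 alternatives, down to -0.42 with limits of 500 to 6000 UMIs. In DKO it changed sign in 2, and ranged from -0.05 to 0.43. HC markers were also highest in KCs of TAZKO, but HCs of TAZKO held Nr1h3 at 82.0 CPM, below its level in KCs of every library. Spic, a factor of the Ets family that is induced by haem in macrophages that recycle iron, was highest in WT. It was at 114 CPM (108 to 120.4) in WT, 93.6 CPM (88.7 to 98.6) in YAPKO, 83.1 CPM (77.1 to 89.4) in TAZKO and 68.8 CPM (64.2 to 73.6) in DKO. All 3 knock-out libraries were below WT, with log2 ratios of -0.28 in YAPKO, -0.45 in TAZKO and -0.73 (-0.85 to -0.60) in DKO. The ratio in DKO was past 1.5-fold in 8 of 10 alternatives and shrank to -0.03 when cells were limited to 500 to 6000 UMIs, where YAPKO (0.10) and TAZKO (0.07) turned above WT. Id3, which binds basic helix-loop-helix factors and keeps them from DNA, is a target of BMP signals in KCs. It was at 615 CPM (600.4 to 630.1) in WT, 594 CPM (581 to 606) in YAPKO, 729 CPM (711 to 747) in TAZKO and 698 CPM (683 to 713) in DKO. TAZKO and DKO were above WT (0.24 and 0.18), and YAPKO was at -0.05, or 0.04 with TMM scaling.

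With the main limits, no member passed 1.5-fold in KCs of YAPKO, 2 did in TAZKO and 4 in DKO. A member was counted when its CPM differed from WT at least 1.5-fold, among genes with at least 100 UMIs in KCs of both libraries together, and all 10 members met that minimum. In YAPKO, 0 members were past 1.5-fold higher and 0 lower, where 2.48% and 6.36% of 10543 genes were, and the median log2 ratio of the 8 members outside the gate was 0.06 against -0.07 over all genes tested. In TAZKO, 1 member was higher (Nr1h3) and 1 lower (Marco), where 23.7% of 10305 genes were higher and 9.63% lower, and the median of the 8 was -0.09 against 0.26. In DKO, 0 members were higher and 4 were lower (Cd163, Spic, Timd4 and Clec4f), where 8.19% of 10616 genes were higher and 5.33% lower, and the median of the 8 was -0.49 against 0.05. Of the 4, Clec4f is used by the gate. The upper limit on genes left out 227 YAPKO barcodes that pass the gate, and without it, a setting chosen after seeing the data, the median of the 8 was -0.15 in YAPKO (all genes -0.02), -0.04 in TAZKO (0.21) and -0.61 in DKO (0.05). Of the 8, 1, 1 and 4 were then lower, where 4.02%, 10.4% and 6.03% of all genes were. With limits of 500 to 6000 UMIs, 1 member was higher in YAPKO (6.01% of all genes), 1 higher (28.5%) and 1 lower (9.93%) in TAZKO, and 1 lower in DKO (7.80%). Scaling by TMM factors moved the median of all genes in TAZKO from 0.26 to 0.05 and the split to 11.1% higher and 16.2% lower. On that scale Marco was at -1.89 and Nr1h3 at 0.88 in TAZKO, and Spic passed 1.5-fold at -0.66. Of the 24 ratios short of 1.5-fold, 14 changed sign under at least 1 of 10 alternatives and 10 did not, while the 6 ratios past 1.5-fold kept their sign under all 10. Depth, RNA of other cells and genotype cannot be told apart with 1 mouse for each genotype.

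**Figure D3:**
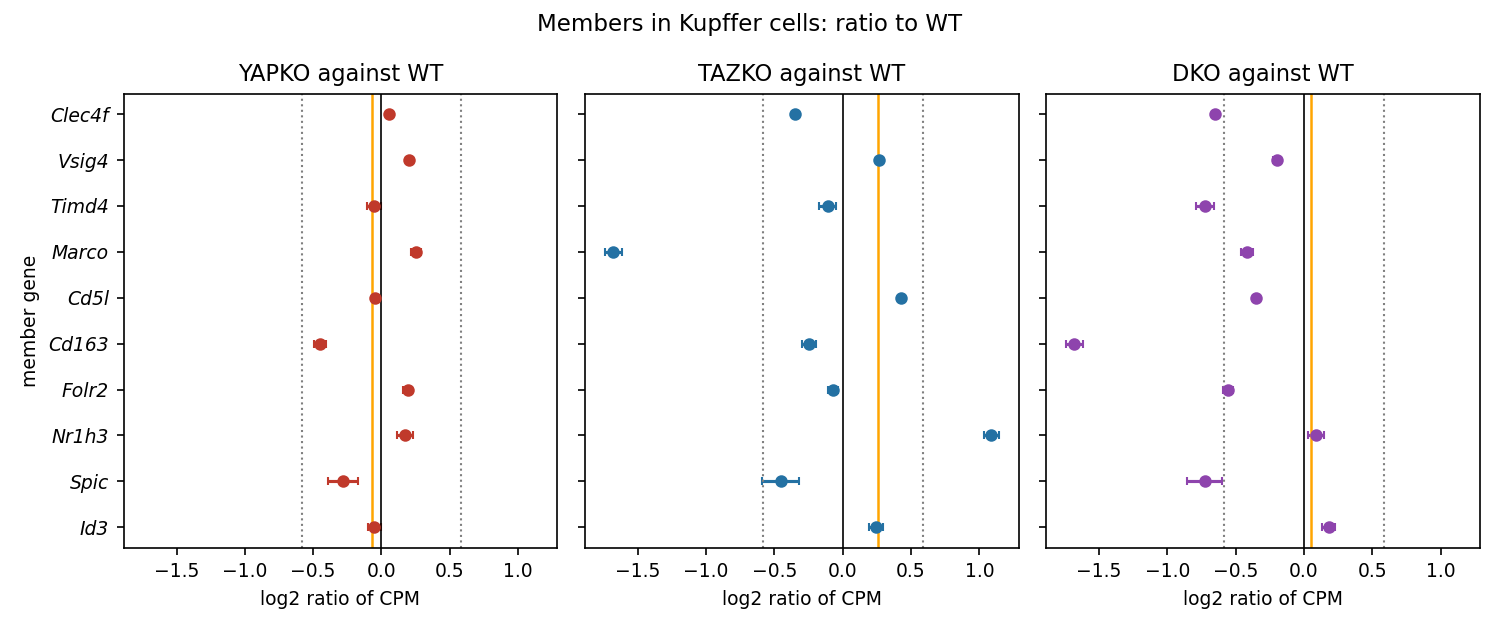
Log2 ratio of CPM in KCs to WT for each member, with exact conditional binomial 95% intervals; dotted lines mark 1.5-fold and the orange line the median of all genes tested. Marco in TAZKO (-1.68) and Cd163 in DKO (-1.68) lay farthest below 0, and Nr1h3 in TAZKO (1.09) farthest above it.

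Genes that work with the members were read in the same KCs, in lists chosen with earlier results of these data known. Over all genes, 2.48% were higher and 6.36% lower in YAPKO, 23.7% and 9.63% in TAZKO, and 8.19% and 5.33% in DKO, with medians of -0.07, 0.26 and 0.05, and the counts of each list stand beside these. The lists were not counted again with TMM scaling, under which 11.1% of all genes were higher and 16.2% lower in TAZKO. Of 8 targets and partners of LXR alpha, 4 were past 1.5-fold higher and 0 lower in TAZKO (median 0.58), where Nr1h3 was highest. Abca1, a cholesterol exporter, was at 234 CPM in WT, 249 in YAPKO, 452 in TAZKO and 258 in DKO, and Abcg1, another exporter, was at 174 CPM in WT, 171 in YAPKO, 321 in TAZKO and 189 in DKO. Both were highest in TAZKO and close together in the other libraries, as Nr1h3 was. Rxra, the heterodimer partner, was at 172 CPM in WT, 141 in YAPKO, 266 in TAZKO and 141 in DKO. In YAPKO and DKO 1 gene of this list was higher, Apoe, which was at 13849 CPM in WT, 23301 in YAPKO, 11200.5 in TAZKO and 25820.1 in DKO and was lowest in TAZKO. The medians of the list were 0.03 in YAPKO and 0.13 in DKO. Of 10 genes of Id proteins and BMP or TGF-beta signals, 0 were higher and 0 lower in YAPKO (median -0.04), 3 higher and 1 lower in TAZKO (0.34), and 2 higher and 0 lower in DKO (0.11). In TAZKO these shares were near those over all genes. Id1, the paralog of Id3, was at 159 CPM in WT, 150.5 in YAPKO, 61.4 in TAZKO and 106 in DKO, and Id2 was at 289 CPM in WT, 316 in YAPKO, 421 in TAZKO and 496 in DKO. Id1 was lowest in TAZKO, where Id3 was highest, and Id2 was highest in DKO.

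Cd163 and Spic belong to haem and iron handling, and of 9 further genes of that kind none passed 1.5-fold in YAPKO (median 0.17) or DKO (-0.06), while 0 were higher and 3 lower in TAZKO (-0.17). Ftl1, the light chain of ferritin, was at 8856 CPM in WT, 12228 in YAPKO, 3503 in TAZKO and 8664 in DKO, and Blvrb, which reduces biliverdin, at 821 CPM in WT, 885 in YAPKO, 391 in TAZKO and 799 in DKO. Both were lowest in TAZKO and near WT in DKO, where Cd163 was lowest. Among 9 other scavenger and complement receptors, 1 was higher and 0 lower in YAPKO (median -0.15), 2 and 0 in TAZKO (0.35), and 1 and 2 in DKO (-0.18). Msr1, a class A scavenger receptor like Marco, was at 469 CPM in WT, 389 in YAPKO, 629.8 in TAZKO and 289.8 in DKO, highest in TAZKO, where Marco was lowest. Mertk, a receptor for dying cells, was at 321 CPM in WT, 273 in YAPKO, 588 in TAZKO and 307 in DKO, also highest in TAZKO. Of 10 other KC genes, 0 were higher and 1 lower in YAPKO (median -0.04), 2 and 0 in TAZKO (0.31), and 0 and 2 in DKO (-0.27). Those lower in DKO were Fcna, at 2175 CPM in WT, 2569.7 in YAPKO, 1798 in TAZKO and 1397 in DKO, and Sdc3, at 1858 CPM in WT, 1236 in YAPKO, 2960.4 in TAZKO and 1094 in DKO. Sdc3 was low in YAPKO as well and highest in TAZKO.

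Genes of recruited and lipid-associated macrophages were read in the same way. Of 7 monocyte genes tested in YAPKO, 6 were higher and 0 lower (median 1.15); of 5 tested in TAZKO, 0 were higher and 4 lower (-0.76); of 5 tested in DKO, 3 were higher and 1 lower (0.67). Of 8 lipid-associated macrophage genes, 8 were higher in YAPKO (median 2.32), 1 of 7 tested in TAZKO (-0.05), and 6 in DKO (1.74), where 1 was lower. Trem2, a lipid receptor, was at 26.6 CPM in WT, 131 in YAPKO, 25.7 in TAZKO and 96.3 in DKO, and Mmp12, a metalloelastase, at 7.70 CPM in WT, 89.1 in YAPKO, 7.67 in TAZKO and 261 in DKO. Both were high in YAPKO and DKO and at the level of WT in TAZKO. Among 6 genes of dividing cells, 1 was lower in YAPKO (median -0.39), 5 in TAZKO (-0.95) and 6 in DKO (-1.54), with Mki67 at 84.3 CPM in WT, 54.9 in YAPKO, 38.9 in TAZKO and 26.5 in DKO. The part of such cells in the levels of the members was not tested between genotypes, and the contrasts within each mouse below give their values in classes of cells.

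The members were next compared within each mouse between KCs and the macrophages in which C1qa and Adgre1 but neither Cd5l nor Clec4f were detected (MACs). MACs numbered 39 in WT, 197 in YAPKO, 35 in TAZKO and 181 in DKO, with median UMIs of 8346 in WT, 13135 in YAPKO, 7448 in TAZKO and 8203 in DKO. The 4 mice replicate this contrast whatever their genotype, and Cd5l and Clec4f, which define it, were given no test. Of the 8 members tested, 7 were higher in KCs and 0 lower in edgeR's quasi-likelihood test with Benjamini-Hochberg adjustment (adjusted p under 0.05), where 8.19% of 13658 genes were higher and 6.32% lower. The median log2 fold change of the 8 was 4.60, against -0.0024 over all genes. The number of genes called moved with 1 library: without YAPKO, 580 genes were higher and 318 lower, against 1118 and 863, and the 7 members stayed called whichever library was left out. Without the library block the numbers were 519 and 345, and with cells thinned to 2000 UMIs before the gate they were 421 and 269.

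Among the 8 tested members Marco had the largest fitted fold change, though the order differed between libraries. KCs held 901 CPM in WT, 1075 in YAPKO, 282 in TAZKO and 675 in DKO, whereas MACs held 0, 2.23, 60.8 and 2.91 CPM. All 19 Marco UMIs of TAZKO MACs lay in 1 of 35 cells. In WT, where MACs had no Marco UMI, KCs were at least 105-fold higher, taken against a floor of 3 UMIs. Marco was higher in KCs of 4 of 4 libraries (edgeR quasi-likelihood, log2 fold change 6.70, adjusted p = 1.09e-04 after Benjamini-Hochberg). Cd163 was at 757 against 5.70 CPM in WT, 553 against 3.71 CPM in YAPKO, 639 against 22.4 CPM in TAZKO and 236 against 8.74 CPM in DKO, KCs before MACs. It was higher in KCs of 4 of 4 libraries (edgeR, log2 fold change 5.94, adjusted p = 3.56e-07). Vsig4 was at 1901 against 59.9 CPM in WT, 2189.9 against 1.86 CPM in YAPKO, 2290.1 against 249.7 CPM in TAZKO and 1656 against 39.1 CPM in DKO. It too was higher in KCs of 4 of 4 libraries (edgeR, log2 fold change 5.49, adjusted p = 1.77e-04), with the highest MAC level in TAZKO. Timd4 was at 454 against 48.5 CPM in WT, 436 against 0.371 CPM in YAPKO, 421 against 128 CPM in TAZKO and 274 against 0.583 CPM in DKO. MACs of YAPKO and DKO held 1 Timd4 UMI each, at log2 ratios of 10.20 (7.72 to 15.50) and 8.88 (6.40 to 14.18), whereas MACs of WT and TAZKO held more. Timd4 was higher in KCs of 4 of 4 libraries (edgeR, log2 fold change 4.59, adjusted p = 0.00161), and the call was lost without the library block (log2 fold change 3.78, adjusted p = 0.0696). Folr2 was at 1172 against 65.6 CPM in WT, 1339.7 against 51.2 CPM in YAPKO, 1115 against 96.1 CPM in TAZKO and 798 against 14.0 CPM in DKO, and higher in KCs of 4 of 4 libraries (edgeR, log2 fold change 4.62, adjusted p = 7.60e-07).

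The regulators differed less between the classes. Nr1h3 was at 386 against 111 CPM in WT, 435 against 77.2 CPM in YAPKO, 820.3 against 51.2 CPM in TAZKO and 411 against 142 CPM in DKO. It was higher in KCs of 4 of 4 libraries (edgeR, log2 fold change 2.35, adjusted p = 1.21e-04), and the gap was widest in TAZKO, where KCs were at their highest and MACs at their lowest level. Spic was at 114 against 28.5 CPM in WT, 93.6 against 32.7 CPM in YAPKO, 83.1 against 16.0 CPM in TAZKO and 68.8 against 22.2 CPM in DKO. It was higher in KCs of 4 of 4 libraries (edgeR, log2 fold change 1.75, adjusted p = 2.28e-05). Over the 4 libraries the log2 ratio was 2.46 ± 1.11 (SD, n = 4) for Nr1h3 and 1.88 ± 0.39 (SD, n = 4) for Spic. Id3 was at 615 against 619 CPM in WT, 594 against 665 CPM in YAPKO, 729 against 569.9 CPM in TAZKO and 698 against 916 CPM in DKO. It did not pass the test (edgeR, log2 fold change -0.02, adjusted p = 0.956) and was higher in KCs in 1 of 4 libraries, TAZKO. RNA of other cells also differed between the classes: the summed CPM of HC markers in MACs was 2924 in WT, 2969.6 in YAPKO, 17853 in TAZKO and 3449 in DKO, and that of monocyte markers 2145 in WT, 1829.8 in YAPKO, 663 in TAZKO and 1063 in DKO. That of neutrophil markers was 465 in WT, 2625 in YAPKO, 67.2 in TAZKO and 75.8 in DKO, far above KCs in YAPKO, and that of BEC markers was 117 in WT, 2.97 in YAPKO, 16.0 in TAZKO and 3.50 in DKO, highest in WT. TAZKO MACs held the most HC RNA as well as the most Vsig4, Timd4, Marco, Cd163 and Folr2 among MACs, but these levels came from few of the 35 cells: 7 had Vsig4, 6 Folr2, 5 Timd4, 2 Cd163 and 1 Marco. The part of RNA from other cells, and of KCs with undetected gate genes, in the levels of MACs was not tested.

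Genes that share a function with the members were read in the same contrast (edgeR, adjusted p under 0.05), in which 8.19% of all genes were higher and 6.32% lower. The lists were chosen with earlier results of these data known, so their counts are a description. All 10 other KC genes rose in KCs (median log2 fold change 3.23), among them Fabp7 (5.64), C6 (5.08) and Slc40a1, the iron exporter ferroportin (3.75). Of the LXR targets and partners 3 of 8 rose (median 0.18), namely Rxra (1.87), Abca1 (1.22) and Abcg1 (0.88), and 6 of 9 genes of haem and iron handling rose (median 0.69), Hmox1 (2.80) among them. Of 9 scavenger and complement receptors 5 rose and 2 fell (median 0.99), and of 10 genes of Id proteins and BMP or TGF-beta signals 3 rose and 1 fell (median 0.11). Monocyte genes fell in 7 of 8 cases (median -3.37) and lipid-associated macrophage genes in 6 of 8 (median -1.84), while 1 of 6 genes of dividing cells rose (median 0.28). Genes were also ranked by fold change among those called, with at least 200 UMIs and the same sign in every library. Of these, the largest fold changes toward KCs were those of Hbb-bt, Hba-a2, Kcnj16, Abhd11os, Pcolce2, Rims4, Slc12a8, Kcna2, Tmem229a and Tmtc1. Hbb-bt and Hba-a2 are haemoglobin genes of red blood cells and rested mostly on YAPKO, where KCs held 1766 UMIs of Hbb-bt against 51 in WT, 24 in TAZKO and 10 in DKO. For most of these MACs held 0 UMIs, so fitted values depend on the prior count, but Pcolce2, an enhancer of procollagen processing, was at 262, 285, 261 and 168 CPM in KCs of WT, YAPKO, TAZKO and DKO and at most 3.20 CPM in MACs. The largest toward MACs were those of Retnla, Chil3, F13a1, Gpr183, Mgl2, S100a4, Clec4e, Runx3, Lat2 and Sh2d1b1, and F13a1, a coagulation factor subunit of monocytes, was at 177, 182, 234 and 46.1 CPM in their MACs (log2 fold change -4.45). Retnla rested mostly on WT, where MACs held 865 UMIs against 3 in YAPKO, 8 in TAZKO and 28 in DKO, and in YAPKO the interval of its log2 ratio (-2.53 to 1.88) held 0.

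KCs were then divided within each mouse by whether a Timd4 UMI was found, since Timd4 marks KCs of long residence. Timd4-positive KCs numbered 694 in WT, 642 in YAPKO, 1004 in TAZKO and 691 in DKO, and as a share of KCs they made up 85.7% in WT, 76.8% in YAPKO, 79.1% in TAZKO and 70.1% in DKO. The share was highest in WT and lowest in DKO. With both gate genes required, 684 of 781 KCs were Timd4-positive in WT and 638 of 733 in YAPKO. In TAZKO it was 1000 of 1239 and in DKO 686 of 890. YAPKO then lay close to WT and above TAZKO. The median depth of Timd4-positive KCs in UMIs came to 13299 in WT, 18474 in YAPKO, 6661 in TAZKO and 11762 in DKO, and that of Timd4-negative KCs was 8615 in WT, 16755 in YAPKO, 3426 in TAZKO and 10604 in DKO, so positive cells were deeper in each library. Of the 7 members outside the gate other than Timd4, 6 were higher in Timd4-positive KCs and 0 lower (edgeR quasi-likelihood, Benjamini-Hochberg adjusted p under 0.05), where 8.62% of 13338 genes were higher and 10.9% lower. The median log2 fold change of the 7 was 1.505, against 0.01 over all genes. Timd4 is itself a KC identity gene, so a split by Timd4 favors higher levels of the other members in positive cells. These calls too describe the classes. The number of higher genes was 1150 and became 703 without YAPKO and 667 without DKO, while the 6 members stayed called whichever library was left out. Without the library block 75 genes were higher and 405 lower, against 1150 and 1453, and with cells thinned to 2000 UMIs first, which lessens the difference in depth, 48 were higher and 151 lower.

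Cd163 was at 839.7 against 128 CPM in WT, 694 against 48.6 CPM in YAPKO, 674 against 434 CPM in TAZKO and 311 against 46.6 CPM in DKO, Timd4-positive before Timd4-negative KCs. It was higher in 4 of 4 libraries (edgeR, log2 fold change 2.47, adjusted p = 4.51e-04), and the gap was narrowest in TAZKO. Marco was at 999 against 158 CPM in WT, 1349 against 89.9 CPM in YAPKO, 283 against 273 CPM in TAZKO and 891 against 125 CPM in DKO. It was higher in 4 of 4 libraries (edgeR, log2 fold change 2.45, adjusted p = 0.00195), but in TAZKO the log2 ratio was 0.05 (-0.11 to 0.22), where Timd4-positive KCs were the lowest and Timd4-negative KCs the highest of the 4 libraries. Against WT, the log2 ratio of Marco in TAZKO was -1.82 in Timd4-positive and 0.79 in Timd4-negative KCs, a split chosen after seeing the data. In Timd4-negative KCs of TAZKO other members were above WT as well, Cd163 at 1.76, Nr1h3 at 1.49 and Vsig4 at 1.29 among them, and 33.4% of all genes were past 1.5-fold higher there. These were the shallowest cells, and the part of Timd4 UMIs missed at low depth was not tested. The lower Cd163 of DKO was found on either side of the split, at -1.43 and -1.46, and so was the higher Nr1h3 of TAZKO, at 1.05 in Timd4-positive KCs. Spic in DKO was at -0.72 in Timd4-positive but at -0.11 in Timd4-negative KCs. Clec4f in DKO was at -0.46 in Timd4-positive KCs, short of 1.5-fold, and at -0.59 in Timd4-negative KCs. Vsig4 was at 2068 against 628 CPM in WT, 2673 against 455 CPM in YAPKO, 2417 against 1540.5 CPM in TAZKO and 1985 against 821 CPM in DKO, higher in 4 of 4 libraries (edgeR, log2 fold change 1.58, adjusted p = 3.17e-04). Folr2 was at 1254 against 542 CPM in WT, 1595 against 422 CPM in YAPKO, 1204 against 590.4 CPM in TAZKO and 993 against 302 CPM in DKO, higher in 4 of 4 libraries (edgeR, log2 fold change 1.505, adjusted p = 7.90e-06). The gate genes are given as a description without a test, Clec4f at 6069.6 against 2270.3 CPM in WT, 7027 against 1647 CPM in YAPKO, 4698 against 2698 CPM in TAZKO and 4401 against 1508 CPM in DKO. For Cd5l the values were 5287 against 2929.9 CPM in WT, 5559 against 2260.4 CPM in YAPKO, 7052 against 4964 CPM in TAZKO and 4691 against 1991 CPM in DKO. Of the receptors outside the gate, Cd163 (log2 fold change 2.09, adjusted p = 0.120) missed the threshold in edgeR's test without the library block.

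**Figure D4:**
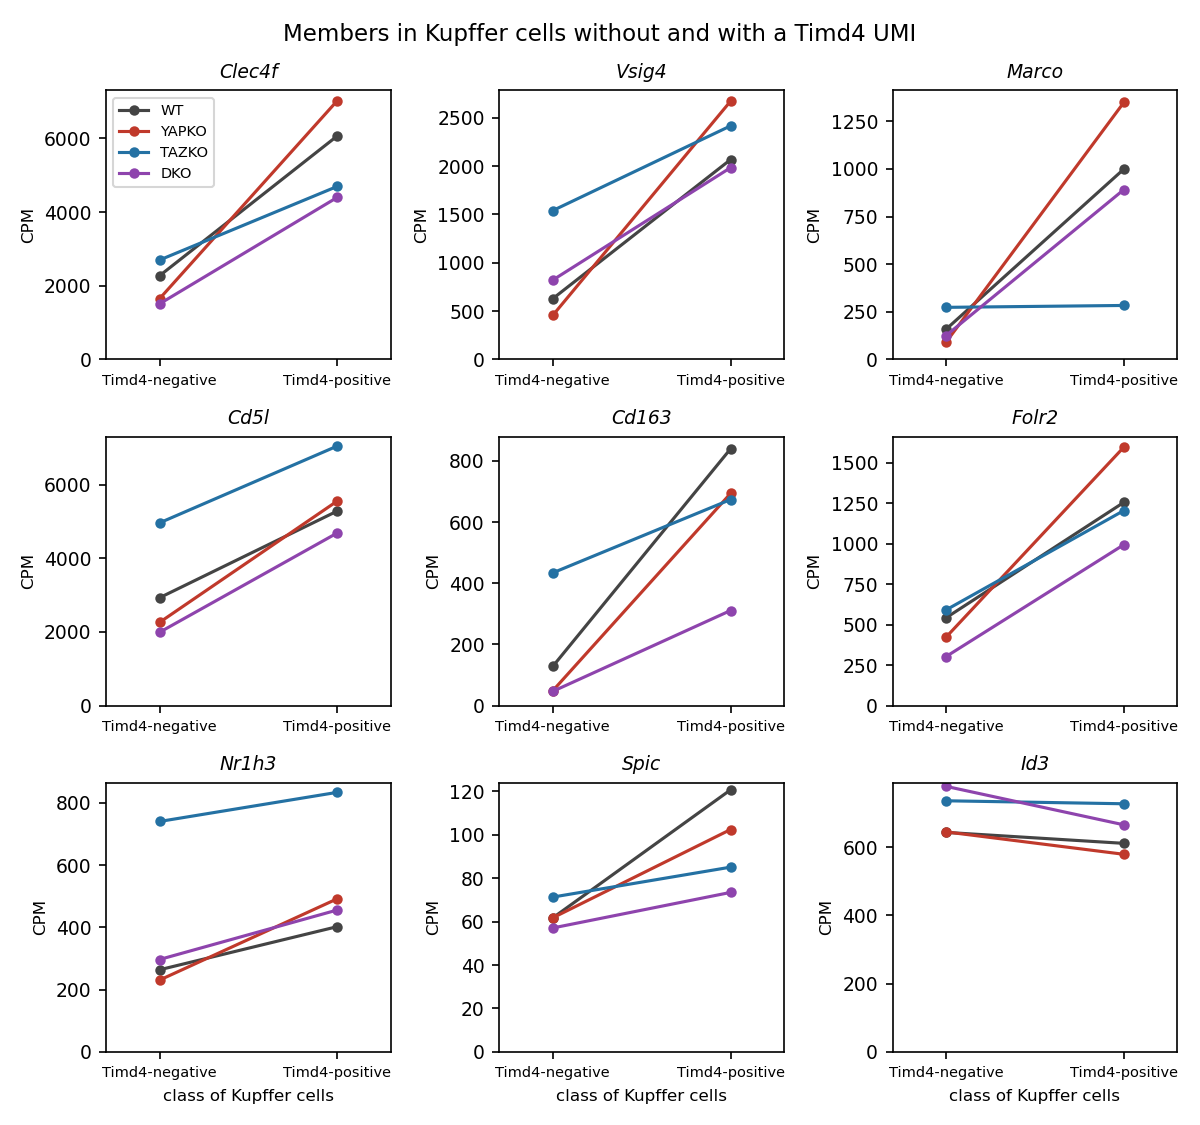
CPM of each member other than Timd4 in KCs without (left) and with (right) a Timd4 UMI; each line joins the classes of 1 library. Lines of the receptors and Cd5l rise to the right, that of Marco in TAZKO is nearly level (273 to 283 CPM), and those of Id3 slope down.

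Among the regulators the gap was smaller. Nr1h3 was at 402 against 264 CPM in WT, 492 against 230.5 CPM in YAPKO, 834 against 740.2 CPM in TAZKO and 456 against 297 CPM in DKO, higher in 4 of 4 libraries (edgeR, log2 fold change 0.66, adjusted p = 0.00164). Spic was at 121 against 61.7 CPM in WT, 102 against 61.7 CPM in YAPKO, 85.1 against 71.3 CPM in TAZKO and 73.4 against 57.1 CPM in DKO, higher in 4 of 4 libraries (edgeR, log2 fold change 0.60, adjusted p = 0.00186), but in TAZKO the interval of the log2 ratio, 0.26 (-0.07 to 0.59), held 0. Both kept their direction in every alternative but lost the call in 3 of them. With cells thinned to 2000 UMIs, Nr1h3 (log2 fold change 0.10, adjusted p = 0.677) and Spic (log2 fold change 0.17, adjusted p = 0.736) missed the threshold (edgeR). They also missed it with KCs led by another marker class left out, Nr1h3 with log2 fold change 0.41, adjusted p = 0.0922, and Spic with log2 fold change 0.36, adjusted p = 0.0856 (edgeR). The same held without the library block for Nr1h3 (log2 fold change 0.57, adjusted p = 0.524) and Spic (log2 fold change 0.63, adjusted p = 0.150). Id3 was at 611 against 644 CPM in WT, 579 against 645 CPM in YAPKO, 727 against 736 CPM in TAZKO and 666 against 779 CPM in DKO, lower in Timd4-positive KCs in 4 of 4 libraries without passing the test (edgeR, log2 fold change -0.09, adjusted p = 0.610). The part of depth in these gaps was not tested further.

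The lists gave further values for the same contrast (edgeR, adjusted p under 0.05), in which 8.62% of all genes were higher and 10.9% lower. Their counts are a description here too, since the lists were chosen with earlier results of these data known. All 10 other KC genes were higher in Timd4-positive KCs (median log2 fold change 0.94), with C6 at 2.20 and Fcna, a ficolin, at 1.77. Higher too were 3 of 8 LXR targets and partners (median 0.10; Abca1, Rxra and Abcg1) and 6 of 9 genes of haem and iron handling (median 0.50; Hmox1 at 1.17). Scavenger and complement receptors were higher in 5 and lower in 2 of 9 cases (median 0.44), genes of Id proteins and BMP or TGF-beta signals higher in 2 and lower in 1 of 10 (median 0.01), and of 6 genes of dividing cells 0 were called in either direction (median -0.28). Monocyte genes were lower in 6 of 7 cases (median -2.51) and lipid-associated macrophage genes in 7 of 8 (median -1.70), with Spp1, or osteopontin, at -6.41, the chemokine receptor Cx3cr1 at -4.11 and Ccr2, which draws monocytes to tissue, at -3.07. Timd4-negative KCs thus held more of the monocyte and lipid-associated genes and less of the KC receptors. Some Timd4-negative KCs carried only 1 of the gate genes. With both required, they numbered 97 against 116 in WT and 95 against 194 in YAPKO. In TAZKO they numbered 239 against 266 and in DKO 204 against 295. The part of such cells in this contrast was not tested. Called genes with at least 200 UMIs and the same sign in every library were ranked as before. Of these, Hba-a2, Hbb-bt, Hbb-bs, Hba-a1, Cxcl13, Cd209f, Abhd11os, Cd209g, Cd163 and Marco had the largest fold changes toward Timd4-positive KCs, and Spp1, Cx3cr1, Syngr1, Gdf3, Myo5a, Ccr1, Lat2, Mcub, Gm21188 and Ccr2 toward the negative ones. Hba-a2, Hbb-bt, Hbb-bs and Hba-a1 are haemoglobin genes of red blood cells, and most of their UMIs lay in YAPKO. There Timd4-positive KCs held 1766 UMIs of Hbb-bt against 49 in WT, 24 in TAZKO and 9 in DKO. Hbb-bs was higher in each library, as the ranking required, and its interval was clear of 0 in each. Its log2 ratio was 5.69 in WT, 7.25 in YAPKO, 4.44 in TAZKO and 4.74 in DKO. The interval held 0 for Hbb-bt in WT and DKO, and for Hba-a1 and Hba-a2 in TAZKO. Cxcl13, a chemokine for B cells, had a CPM of 245 in WT, 115 in YAPKO, 184 in TAZKO and 39.6 in DKO in positive KCs and of 22.4 in WT, 5.81 in YAPKO, 30.4 in TAZKO and 3.20 in DKO in negative KCs (log2 fold change 3.46).

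The share of KCs with at least 1 UMI of a member was read with all UMIs and again with 2000 UMIs drawn from every cell, so that depth was equal. KCs left out because they had fewer numbered 18 in WT, 3 in YAPKO, 108 in TAZKO and 15 in DKO. The share with Cd163 was 82.3% in WT, 73.3% in YAPKO, 78.0% in TAZKO and 51.0% in DKO, and after thinning 62.9% in WT, 47.7% in YAPKO, 60.1% in TAZKO and 30.6% in DKO. DKO was lowest and WT highest either way. The share with Marco was 65.7% in WT, 65.2% in YAPKO, 35.5% in TAZKO and 52.6% in DKO, and after thinning 47.9% in WT, 46.7% in YAPKO, 25.1% in TAZKO and 35.6% in DKO. TAZKO was lowest, and there the mean number of Marco UMIs in thinned cells with Marco was 2.36, against 3.74 in WT, 4.30 in YAPKO and 3.69 in DKO. Fewer KCs had Marco in TAZKO, and those that did had fewer UMIs of it. The share with Timd4 after thinning was 55.6% in WT, 48.7% in YAPKO, 54.1% in TAZKO and 37.1% in DKO, with DKO lowest as before it. The share with Nr1h3 was 90.4% in WT, 91.3% in YAPKO, 93.1% in TAZKO and 91.1% in DKO with all UMIs, where the libraries were alike, and 52.4% in WT, 54.1% in YAPKO, 76.0% in TAZKO and 50.9% in DKO after thinning, where TAZKO stood above the others.

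The share with Spic was 57.2% in WT, 61.0% in YAPKO, 32.6% in TAZKO and 44.7% in DKO with all UMIs, lowest in the shallow TAZKO library, and 18.9% in WT, 13.2% in YAPKO, 13.4% in TAZKO and 13.3% in DKO after thinning, where WT was highest and the others alike. For Vsig4 it was 92.2% in WT, 83.5% in YAPKO, 97.8% in TAZKO and 87.6% in DKO, and after thinning 87.6% in WT, 79.6% in YAPKO, 94.0% in TAZKO and 80.7% in DKO. For Folr2 it was 94.0% in WT, 91.4% in YAPKO, 92.0% in TAZKO and 87.7% in DKO, and after thinning 79.9% in WT, 78.9% in YAPKO, 80.6% in TAZKO and 66.7% in DKO. After thinning TAZKO was highest for both, and DKO was lowest for Folr2. The gate genes were at 99.3% in WT, 97.2% in YAPKO, 99.2% in TAZKO and 98.6% in DKO for Cd5l and 97.2% in WT, 90.4% in YAPKO, 98.3% in TAZKO and 91.7% in DKO for Clec4f. For Id3 the share was 93.1% in WT, 96.2% in YAPKO, 89.9% in TAZKO and 96.0% in DKO, and after thinning 64.3% in WT, 61.8% in YAPKO, 71.6% in TAZKO and 70.2% in DKO, where YAPKO was lowest.

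The same shares were read in B and T cells, whose median UMIs before thinning were 2948 in WT, 2883 in YAPKO, 2862 in TAZKO and 2200 in DKO for B cells and 4911 in WT, 4661 in YAPKO, 4138 in TAZKO and 3277 in DKO for T cells. With all UMIs, members other than Id3 were detected in at most 7.09% of either (Clec4f in T cells of WT). B cells left out by thinning numbered 15 in WT, 25 in YAPKO, 50 in TAZKO and 103 in DKO, and T cells 7 in WT, 4 in YAPKO, 9 in TAZKO and 32 in DKO. After thinning, members other than Id3 were detected in at most 3.85% of either (Clec4f in B cells of YAPKO). Cd163 was found in 0 thinned B cells of DKO, for which 3 cells would be 1.27%, and Spic in 0 thinned T cells of each library, where 3 cells would be 0.802% in WT, 0.483% in YAPKO, 0.388% in TAZKO and 0.333% in DKO. Every share in KCs was above these. For Id3 the share after thinning was 14.9% in WT, 25.7% in YAPKO, 18.3% in TAZKO and 22.5% in DKO in B cells and 7.75% in WT, 10.3% in YAPKO, 7.24% in TAZKO and 10.7% in DKO in T cells.

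Within single KCs thinned to 2000 UMIs, the 8 members outside the gate were counted together. The median number detected was 5 in WT, 5 in YAPKO, 5 in TAZKO and 4 in DKO, and the mean was 4.69 in WT, 4.31 in YAPKO, 4.75 in TAZKO and 3.85 in DKO. DKO KCs carried the fewest, and WT and TAZKO KCs the most. The share of KCs with none of the 8 was 2.27% in WT, 4.80% in YAPKO, 0.602% in TAZKO and 1.96% in DKO, and that with all 8 was 1.52% in WT, 1.08% in YAPKO, 0.688% in TAZKO and 0.515% in DKO. Cells without any of the 8 were most frequent in YAPKO and rarest in TAZKO. The gate was applied before thinning. KCs with only 1 UMI of the gate genes numbered 12 in WT, 48 in YAPKO, 11 in TAZKO and 31 in DKO. Their part among cells without any of the 8 was not tested.

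**Figure D5:**
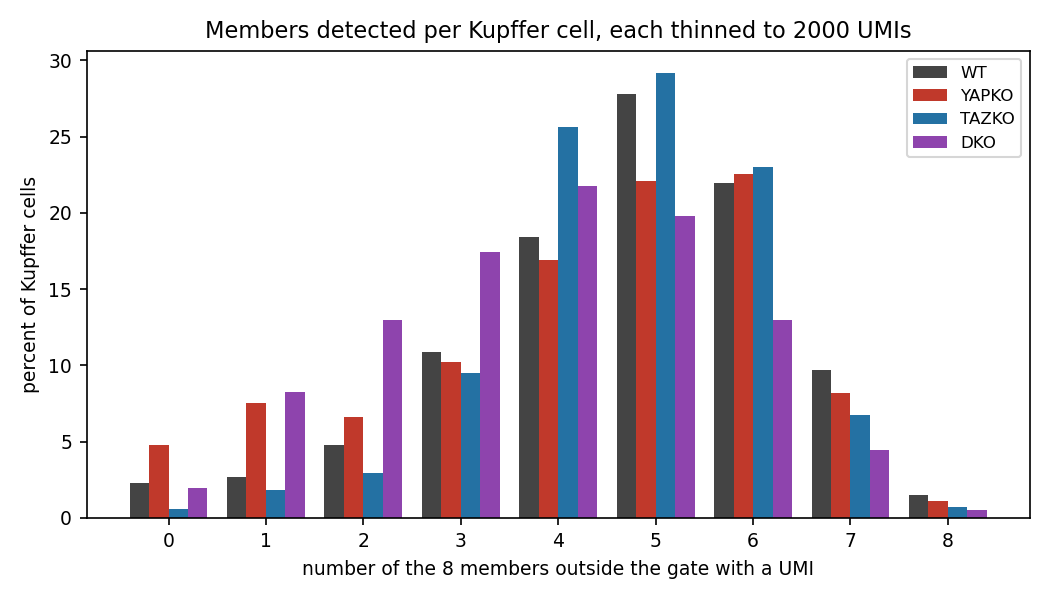
Percent of KCs, each thinned to 2000 UMIs, by the number of the 8 members outside the gate with a UMI; bars are the 4 libraries. Bars of DKO peak at 4 members (21.7%) and those of WT at 5 (27.8%).

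Other genes were ranked by how closely they followed the sum of the 8 members outside the gate over the combinations of cell class and library with at least 20 cells. The measure was Pearson's r between log2(CPM + 1) of a gene and that of the summed members over 55 combinations, and it is a description, since combinations share libraries, depth and RNA of other cells. Outside the phagocytes the sum was mostly Id3, except in HCs. By the median over libraries, Id3 was at 1166 CPM in ECs and 973.5 in HSCs, against 6.43 and 17.6 for Nr1h3, the next highest. In HCs, Nr1h3 was at 74.8 CPM and Id3 at 48.6. Across classes other than phagocytes and HCs, r thus reflects likeness to Id3 rather than to the 8 together. Of 12009 genes compared, the 10 with the highest r other than members were Sdc3 (r = 0.956), Lgmn (0.938), Plekhm2 (0.910), Hpgd (0.904), Dmpk, Rcan1, Il18bp, Wdfy2, Plxna4os1 and Ctsb (0.876). Sdc3, a heparan sulfate proteoglycan, was at 1858 CPM in WT, 1236 in YAPKO, 2960.4 in TAZKO and 1094 in DKO in KCs, and Lgmn, a lysosomal protease, had a CPM of 2014 in WT, 1776 in YAPKO, 3259.6 in TAZKO and 1649 in DKO. Among the members, r was highest for Id3 (0.824) and lowest for Nr1h3 (0.629), and the sum holds both of these genes itself.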

How the data were processed

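The UMI counts were made by the authors with Cell Ranger on the mm10 genome and deposited as 1 matrix per library; the file headers name version 4.0.0 and the submitters' notes version 6.0.1. Kept cells had from 500 to 6000 genes with a UMI, and mitochondrial RNA made up no more than 10%. No doublet caller was run: the upper limit on genes removes some doublets, and an alternative left out KCs whose leading marker class was not the phagocyte class. KCs had UMIs of C1qa, Adgre1 and Cd5l or Clec4f, and other classes were given by marker scores from 77 genes of 12 classes (at least 3 markers, score at least 0.5). The members, marker genes and 9 gene lists were chosen with earlier results of these data known. Of these lists, 1 is not reported here. UMIs were summed over the cells of a class and library and scaled to 1000000 (CPM), with exact Poisson intervals for CPM and exact conditional binomial intervals for ratios. Contrasts within mice used edgeR's quasi-likelihood test with library as a block, and DESeq2 as an alternative. Genes named as largest were the 10 in each direction with the largest fold change among those called, with at least 200 UMIs and the same sign in every library. The code for the tests was tested on simulated data.

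Promoter windows came from RefSeq starts on GRCm38.p6 (250 bases before, 50 after), gene positions from GENCODE vM21, and motif letters were searched on both strands of 32851 promoters. Software was R 4.3.3 with edgeR 4.0.16, limma 3.58.1 and DESeq2 1.42.0, and Python 3.11.15 with numpy 2.4.6, scipy 1.17.1, pandas 2.3.3 and matplotlib 3.10.9.

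With 1 mouse for each genotype, mouse, batch, depth and genotype cannot be told apart, and the intervals leave out variation between mice. The gate uses Cd5l and Clec4f, so KCs that lost both are counted as MACs or other phagocytes. RNA from other cells was not removed. KCs over 6000 genes were left out, most of all in YAPKO. Protein sequences were not used here.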

Additional observations from a re-analysis of the deposited data

Results flagged for a closer look

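Id3 stood out because its ratio between KCs and MACs pointed in different directions between libraries: the log2 ratio was 0.35 (0.14 to 0.58) in TAZKO, -0.16 (-0.24 to -0.09) in YAPKO and -0.39 (-0.47 to -0.31) in DKO, against -0.01 in WT. Each library is 1 mouse, and the difference between them was not tested.

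Barcodes that passed the KC gate but had over 6000 genes stood out because they are left out of every main result and held lower levels of the members than the KCs kept: the 8 members outside the gate had a summed CPM of 3799 in WT, 3083 in YAPKO, 2045 in TAZKO and 2314 in DKO. What these barcodes hold was not tested.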

How the results depend on the processing

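No paired analysis was possible because each genotype had 1 mouse and no mouse was measured under more than 1 genotype; contrasts within a mouse used library as a block.

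For KCs against MACs, 1118 genes were higher and 863 lower. Without the library block the numbers were 519 and 345, and with cells thinned to 2000 UMIs they were 421 and 269. With 1 library left out, 580 to 1078 genes were higher and 318 to 997 lower, lowest without YAPKO and highest without TAZKO. Timd4 lost its call without the block (log2 fold change 3.78, adjusted p = 0.0696).

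For Timd4-positive against Timd4-negative KCs, 1150 genes were higher and 1453 lower. Without the block the numbers were 75 and 405, with thinned cells 48 and 151, and with KCs led by the phagocyte class only 380 and 332. With 1 library left out, 667 (without DKO) to 1033 (without TAZKO) genes were higher and 1047 to 1366 lower. Of members outside the gate, calls were lost without the block for Cd163 (log2 fold change 2.09, adjusted p = 0.120), Nr1h3 (log2 fold change 0.57, adjusted p = 0.524) and Spic (log2 fold change 0.63, adjusted p = 0.150). With thinned cells they were lost for Nr1h3 (log2 fold change 0.10, adjusted p = 0.677) and Spic (log2 fold change 0.17, adjusted p = 0.736), and with phagocyte-led KCs for Nr1h3 (log2 fold change 0.41, adjusted p = 0.0922) and Spic (log2 fold change 0.36, adjusted p = 0.0856).

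Members past 1.5-fold in KCs moved as follows, with the share of all genes past it in the same setting as a percentage. With limits read as 500 to 6000 UMIs, 1 was higher in YAPKO (against 0; 6.01%) and 1 lower in DKO (against 4; 7.80%). With cells thinned to 2000 UMIs, 1 was lower in DKO (against 4; 5.36%). With TMM factors, 2 were lower in TAZKO (against 1; 16.2%) and, with Folr2, 5 in DKO (against 4; 6.25%). The remaining settings were chosen after seeing the data. Without the upper limit on genes, 1 was lower in YAPKO (against 0; 4.02%) and, with Folr2, 5 in DKO (against 4; 6.03%). In Timd4-positive KCs only, 2 were lower in DKO (5.02%). In Timd4-negative KCs only, 2 were lower in YAPKO (9.90%), 5 higher in TAZKO (against 1; 33.4%) and 0 lower in TAZKO (14.5%). Marco in TAZKO turned from -1.68 to 0.79 on the log2 scale in Timd4-negative KCs; the cause was not tested.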
